A study of Rattus norvegicus with 5 samples.

Results

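A list of 10 genes that mark Kupffer cells and other macrophages was followed in rat liver: Adgre1, Clec4f, Cd163, Marco, Cd68, Csf1r, Cd14, Fcgr1a, Tyrobp and Cybb. A gene counted as measured where the array's annotation placed it alone on a probe set, with Adgre1 also looked for under its older name Emr1. By that rule 5 of the 10 were measured, namely Adgre1, Clec4f, Cd14, Tyrobp and Cybb, each by 1 probe set, among 7589 genes in all. Cd163, Marco, Cd68, Csf1r and Fcgr1a were not analysed here, so the haemoglobin receptor, a scavenger receptor, the lysosomal marker, the growth factor receptor and the high-affinity Fc receptor of the list have no values.

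The livers came from 4-month-old male rats kept on standard chow, of 2 inbred strains. PD.SHR4, called PD.SHR4a in the series text, is a congenic strain that carries part of chromosome 4 of the spontaneously hypertensive rat, and the series title describes it as Cd36-deficient. PD is the progenitor strain on whose background that segment sits. Labelled cDNA of 8 rats was pooled for each strain and hybridised to 2 PD.SHR4 arrays and 3 PD arrays (Affymetrix Rat Exon 1.0 ST), and the labels do not say whether the arrays of a strain held the same pool. The p-values therefore describe only how far these arrays differ, possibly for technical reasons, and not how far rats differ. Values are log2 expression levels, on which a difference of 1 is a doubling of the signal.

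Kupffer cells are the resident macrophages of the liver. They sit in the sinusoids, take up bacteria, dead cells and old red cells from portal blood, and depend on the growth factor receptor Csf1r for their survival. Monocytes that enter the liver from blood share many of their genes, so a marker such as Tyrobp or Cybb belongs to myeloid cells at large, while Clec4f is known in rodent liver as a marker of Kupffer cells. Fewer cells of a type and less RNA per cell cannot be told apart in whole liver.

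Array medians lay between 5.21 and 5.38, and the 5 arrays correlated at r = 0.986 to 0.994 over all 8797 probe sets. Of 12 hepatocyte markers 10 were measured, and their mean level was 12.33 and 12.35 in the PD.SHR4 arrays, against 12.35 to 12.37 in the PD arrays. The probe set of Cd36, the fatty acid translocase, which also covers its neighbour Cd36l1, was 9.11-fold lower in PD.SHR4 (log2 difference -3.19 ± 0.26, SE; limma, adjusted p = 0.0149). All 5 measured macrophage markers lay above the array median in every array.

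None of the 5 markers passed the test between the strains. Tyrobp came closest, at 1.75-fold lower in PD.SHR4, followed by Adgre1 at 1.64-fold and Cybb at 1.35-fold, while Cd14 differed by 1.16-fold and Clec4f by 1.06-fold. All 5 log2 differences were below 0, with a median of -0.43, beside a median of 0.00 over all 8797 probe sets, of which 4397 were below 0. The test (limma, two-sided, adjusted over all 8797 probe sets, threshold 0.05) called 0.932% of probe sets, and 0.659% as lower, so that 0 of 5 is near the background. At an unadjusted p under 0.05, 3 of the 5 were lower, where 7.92% of all probe sets were.

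**Figure D1:**
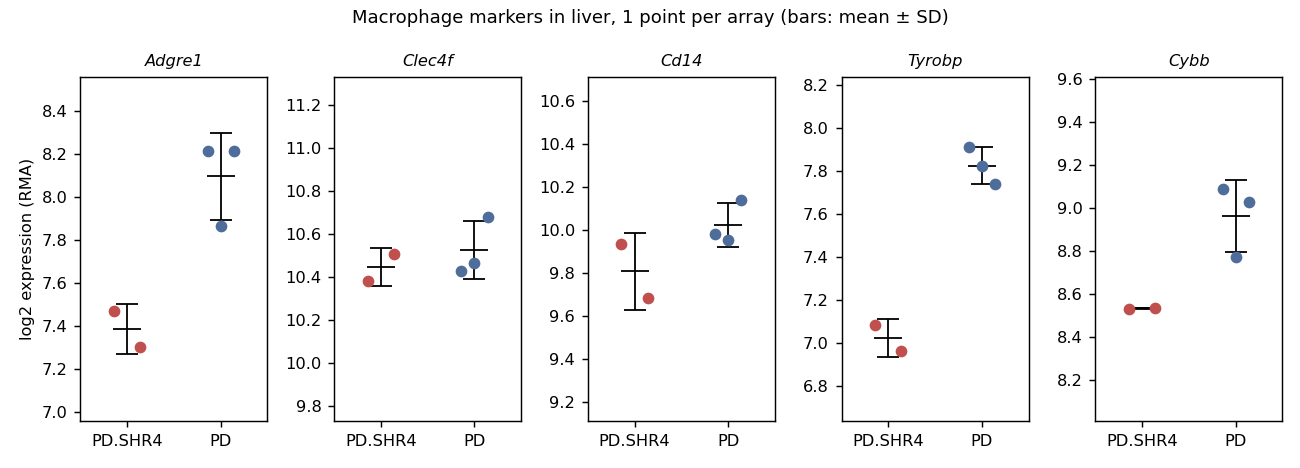
Log2 expression of the 5 measured macrophage markers in each array, PD.SHR4 left (2 arrays) and PD right (3 arrays), with mean and SD. Every panel spans the same number of log2 units. The strains are apart for Adgre1, Tyrobp and Cybb, narrowly for Cd14, and overlap for Clec4f.

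Adgre1 encodes the F4/80 antigen, an adhesion-type receptor long used to stain tissue macrophages. It measured 7.47 and 7.30 in the PD.SHR4 arrays, against 8.21, 7.86 and 8.21 in the PD arrays. Both PD.SHR4 arrays lay below the lowest PD array, by 0.40. The means were 7.38 ± 0.12 (SD, n = 2) and 8.10 ± 0.20 (SD, n = 3), a log2 difference of -0.71 ± 0.16 (SE; limma, adjusted p = 0.124). The array PD 2 was the low one of its strain, and without it the difference was -0.83.

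Clec4f encodes a C-type lectin of rodent Kupffer cells that binds galactose-bearing glycans. It measured 10.38 and 10.51 in the PD.SHR4 arrays and 10.43, 10.47 and 10.68 in the PD arrays. These values interleave, and 1 PD.SHR4 array exceeded 2 of the 3 PD arrays. The log2 difference was -0.08 ± 0.13 (SE; limma, adjusted p = 0.877), with a 95% interval of -0.41 to 0.25. Clec4f lies on chromosome 4, as does Cd36 in the RefSeq gene table of assembly GRCr8. Whether it lies in the SHR segment is not given in the sources used here.

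Cd14 is the surface protein that hands bacterial lipopolysaccharide to the Tlr4 receptor, and hepatocytes make it as well. It measured 9.93 and 9.68 in the PD.SHR4 arrays, against 9.98, 9.95 and 10.14 in the PD arrays. The strains did not overlap, but their nearest arrays were 0.016 apart. The log2 difference was -0.22 ± 0.14 (SE; limma, adjusted p = 0.592). It rested on the array PD.SHR4 2, since it was -0.09 without that array and -0.34 without PD.SHR4 1.

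Tyrobp encodes DAP12, the adaptor with an ITAM, a paired tyrosine motif, through which many myeloid and natural killer cell receptors signal. It measured 7.09 and 6.96 in the PD.SHR4 arrays, against 7.92, 7.83 and 7.74 in the PD arrays. This was the widest gap of the 5 markers, 0.65 between the nearest arrays of the strains, beside a range of 0.12 within PD.SHR4 and 0.17 within PD. The log2 difference was -0.80 ± 0.12 (SE; limma, adjusted p = 0.0572), the 97th smallest p of all probe sets. It passed with an intensity trend and robust shrinkage (adjusted p = 0.0391), without the dimmest 25% of probe sets (0.0370 as the adjusted p) and with array weights (0.0100 as the adjusted p), and without PD.SHR4 2 its adjusted p was 0.415.

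Cybb encodes NOX2, the membrane subunit of the phagocyte NADPH oxidase that makes superoxide against microbes. It measured 8.53 and 8.54 in the PD.SHR4 arrays, against 9.09, 8.77 and 9.03 in the PD arrays. The PD.SHR4 arrays differed by 0.0036 and lay 0.24 below the lowest PD array. The log2 difference was -0.43 ± 0.14 (SE; limma, adjusted p = 0.253).

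For 4 of the 5 markers both PD.SHR4 arrays lay below every PD array, which held for 17.1% of all probe sets. Within PD, the array PD 2 was the lowest for Adgre1, Cd14 and Cybb, but not for Tyrobp or Clec4f, whose lowest PD arrays were PD 3 and PD 1.

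**Figure D2:**
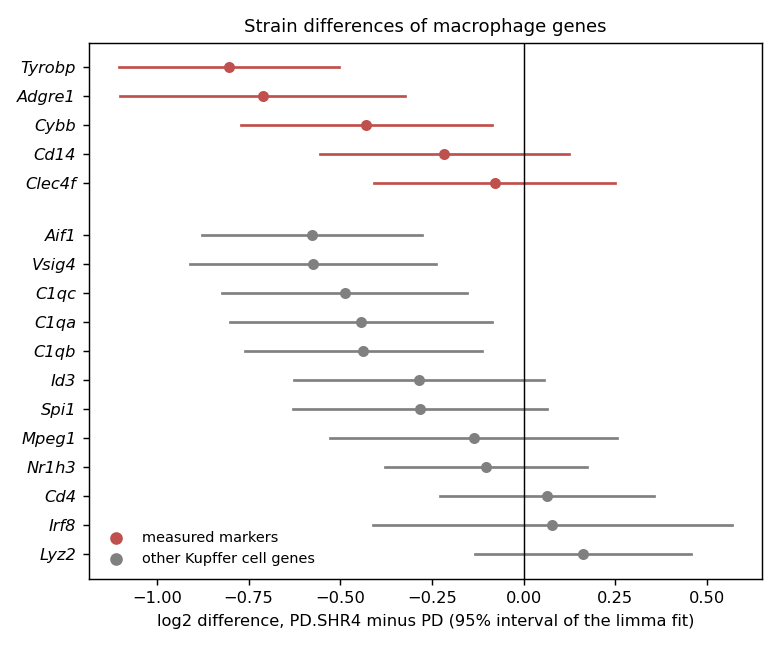
Log2 differences (PD.SHR4 minus PD) with 95% intervals of the limma fit for the 5 measured markers (red) and 12 other Kupffer cell genes (grey). The intervals of Tyrobp, Adgre1 and Cybb end below 0, those of Cd14 and Clec4f span it, and none of the 17 genes passed after adjustment over all probe sets.

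The upstream sequences of 3 markers are shown, those of Adgre1 and Cybb, which were lower in both PD.SHR4 arrays, and of Clec4f, which was not. That of Cd14, which was also lower in both PD.SHR4 arrays but by only 0.016 between the nearest arrays, is described but not printed. RefSeq promoter windows of assembly GRCr8, from 250 bases before to 50 after the start of the gene, were found for 4 of the 5, Adgre1, Clec4f, Cd14 and Cybb. The assembly comes from a BN rat, so the letters may differ from those of PD or SHR. Capitals mark matches on either strand to GAGGAA, the core bound by PU.1, the myeloid transcription factor encoded by Spi1. The Adgre1 window (chr9:2329190-2329489, plus strand), the Cybb window (chrX:16065016-16065315, minus strand) and the Clec4f window (chr4:117696358-117696657, minus strand) read as follows, 5′ to 3′.
Adgre1: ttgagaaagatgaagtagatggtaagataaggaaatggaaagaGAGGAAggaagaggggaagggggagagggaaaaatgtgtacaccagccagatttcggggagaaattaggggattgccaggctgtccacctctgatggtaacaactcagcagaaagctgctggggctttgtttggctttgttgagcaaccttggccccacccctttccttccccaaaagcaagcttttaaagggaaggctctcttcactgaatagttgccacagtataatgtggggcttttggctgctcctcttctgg
Cybb: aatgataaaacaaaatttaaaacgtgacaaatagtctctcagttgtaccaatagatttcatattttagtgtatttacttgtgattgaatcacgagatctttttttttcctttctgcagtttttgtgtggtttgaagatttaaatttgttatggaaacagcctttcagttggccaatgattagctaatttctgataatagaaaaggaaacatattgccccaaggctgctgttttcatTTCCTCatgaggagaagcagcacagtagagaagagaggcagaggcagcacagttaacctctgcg
Clec4f: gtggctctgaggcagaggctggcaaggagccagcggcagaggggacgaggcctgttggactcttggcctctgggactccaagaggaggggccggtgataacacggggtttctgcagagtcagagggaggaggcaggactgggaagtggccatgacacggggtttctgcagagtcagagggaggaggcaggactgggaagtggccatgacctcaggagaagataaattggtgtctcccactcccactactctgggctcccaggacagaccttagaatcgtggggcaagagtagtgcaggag

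Adgre1 had 1 match to the PU.1 core, 207 bases before the start. Cybb had 1, on the opposite strand, 14 bases before the start. Clec4f had 0 matches in this window, and Cd14 had 2, at 140 and 105 bases before the start. Over 27457 windows, 27.5% held the motif. A match describes these letters and is not evidence of binding. Cd14 had the most matches, beside a log2 difference of -0.22, and Tyrobp had no window. Whether matches go with the strain differences was not tested.

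A shift of a whole array cannot alter the ratio of a pair of genes within it, so the other 4 markers were also set against Clec4f in each array, a comparison chosen after the values were seen. The size of such a log2 ratio depends on the probes, and only its difference between strains was compared. Clec4f, a gene of chromosome 4, had a log2 difference of only -0.08. The ratio differences therefore largely repeat the other markers' own differences and are not separate support for them. The log2 ratio of Tyrobp to Clec4f was -3.30 and -3.55 in the PD.SHR4 arrays, against -2.51, -2.64 and -2.94 in the PD arrays, a difference of -0.72. That of Adgre1 was -2.92 and -3.21 in the PD.SHR4 arrays, against -2.21, -2.60 and -2.47 in the PD arrays, a difference of -0.63. The strains did not overlap for either gene.

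For Cybb the ratio was -1.85 and -1.97 in the PD.SHR4 arrays, against -1.34, -1.69 and -1.65 in the PD arrays, a difference of -0.35, again without overlap. For Cd14 it was -0.45 and -0.83 in the PD.SHR4 arrays, against -0.45, -0.52 and -0.54 in the PD arrays, a difference of -0.14 with overlap that turned to 0.05 without PD.SHR4 2. An exact two-sided permutation test gave p = 0.1 for Tyrobp, Adgre1 and Cybb and p = 0.5 for Cd14, and adjusted over the 4 ratios 0.133 and 0.5. With 2 arrays against 3, 0.1 is the smallest p that the 10 splits allow, so these ratios cannot pass a threshold of 0.05.

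**Figure D3:**
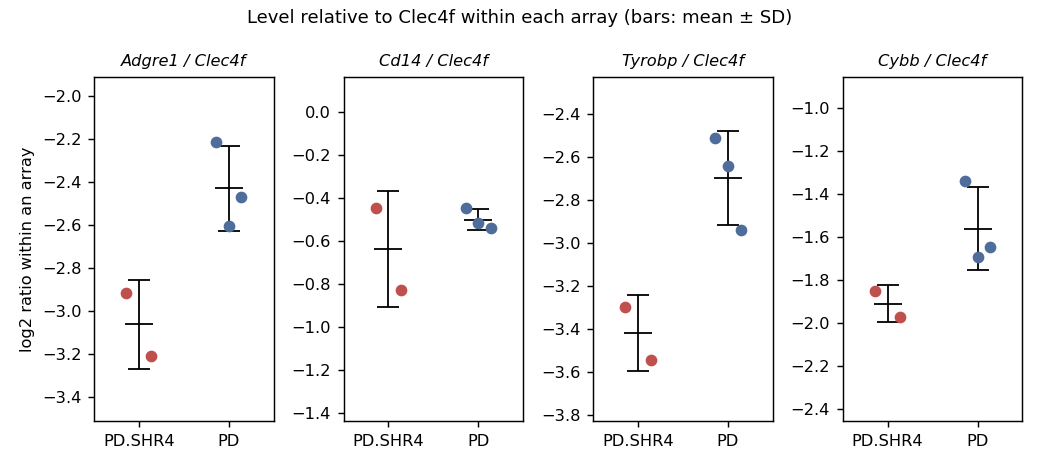
Log2 ratio of each other marker to Clec4f within each array, PD.SHR4 left and PD right, with mean and SD. The PD.SHR4 arrays lie below all PD arrays for Adgre1, Tyrobp and Cybb, and on both sides of them for Cd14.

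Other genes of Kupffer cells were read from a wider list, 12 of 20 measured, with 0 that passed the test and 9 below 0, and a median log2 difference of -0.28. The largest were Aif1, an actin-binding protein of macrophages, at -0.58 ± 0.12 (SE; limma, adjusted p = 0.113), and Vsig4, the complement receptor by which Kupffer cells catch bacteria, at -0.57 ± 0.14 (adjusted p = 0.144). Vsig4 measured 8.77 and 9.03 in the PD.SHR4 arrays, against 9.46, 9.40 and 9.57 in the PD arrays. The 3 chains of complement C1q, which macrophages make, were close to each other: C1qc was at -0.49 ± 0.14 (adjusted p = 0.190), and C1qa and C1qb, named after their values were seen, were at -0.44 ± 0.14 and -0.44 ± 0.13. In 8 of the 12 genes the PD.SHR4 arrays lay below all PD arrays, which held for 17.1% of all probe sets. The 3 genes above 0, named after their values were seen, were Lyz2 at 0.16, Irf8 at 0.08 and Cd4 at 0.06. For Lyz2 the PD.SHR4 arrays lay above all PD arrays.

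Genes that work with the members were grouped by role. Of 18 genes of ITAM and Fc receptor signalling, the pathway of Tyrobp and Fcgr1a, 11 were measured, 0 passed, 9 were below 0 and the median was -0.28. The Src-family kinase Fgr stood at -0.94 ± 0.15 (SE; limma, adjusted p = 0.0606), the low-affinity Fc receptor Fcgr3a at -1.54 ± 0.26 (adjusted p = 0.0727) and Hcst, the adaptor DAP10, at -0.90 ± 0.18 (adjusted p = 0.102). Fcgr3a measured 6.41 and 6.14 in the PD.SHR4 arrays, against 7.98, 7.33 and 8.14 in the PD arrays, farther apart than any of the 5 markers. Other genes of the list, named after their values were seen, differed little. The kinase gene Syk was at 0.12 ± 0.15 and the Fc receptor gene Fcgr2b at 0.05 ± 0.12, the 2 above 0, and Plcg2 was at -0.04 ± 0.12. Fc receptor genes resemble each other in sequence, and how far their probes bind each other's transcripts was not tested.

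Around Cybb, 4 of 8 oxidase genes were measured, 0 passed and 3 were below 0, with a median of -0.11. Rac2, the leukocyte GTPase that switches the oxidase on, was at -0.84 ± 0.14 (SE; limma, adjusted p = 0.0693). Around Cd14, 5 of 16 genes of the lipopolysaccharide receptor were measured, 0 passed and 3 were below 0, with a median of -0.13. Tlr4 itself, named after its value was seen, was at -0.13 ± 0.15, with overlap of the strains. Myd88 and Bpi, also named after their values were seen, were at 0.14 ± 0.16 and 0.18 ± 0.15. Tlr2, a receptor for bacterial lipopeptides that also uses Cd14, measured 3.96 and 3.62 in the PD.SHR4 arrays, against 5.16, 4.77 and 5.92 in the PD arrays, a log2 difference of -1.49 ± 0.34 (adjusted p = 0.133).

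Around Csf1r, 8 of 14 genes were measured and 0 passed, and the median was 0.07. The ligand gene Csf1 was at 0.43 ± 0.14 (SE; limma, adjusted p = 0.259), the opposite sign to the markers, with 5.97 and 5.88 in the PD.SHR4 arrays and 5.31, 5.61 and 5.57 in the PD arrays. Spi1, which encodes PU.1, was at -0.28 ± 0.14 (adjusted p = 0.470) and Cebpb, a transcription factor of myeloid cells and hepatocytes, at -0.27 ± 0.14 (adjusted p = 0.473).

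Hmox1 was the only gene of the scavenging and haem list, 6 of 16 measured, that passed, where 0.659% of all probe sets passed as lower. Haem oxygenase breaks down the haem that macrophages take up with haemoglobin, the ligand of Cd163. It measured 6.82 and 6.74 in the PD.SHR4 arrays, against 7.80, 7.57 and 7.86 in the PD arrays, and fell by 0.97 ± 0.14 on the log2 scale (SE; limma, adjusted p = 0.0489). The call was lost in 8 of 13 alternatives, among them those without PD.SHR4 1, PD.SHR4 2, PD 1 or PD 3, where the adjusted p was 0.312, 0.378, 0.104 and 0.168. The list's median was -0.10, and Scarb1, the lipoprotein receptor that hepatocytes also make, stood at 0.44 ± 0.12 (adjusted p = 0.189).

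Lysosomal genes, the neighbours of Cd68, were measured for 16 of 18, with 0 that passed, 9 below 0 and a median of -0.08. The protease gene Lgmn was at -0.52 ± 0.11 (SE; limma, adjusted p = 0.120), the cholesterol carrier Npc2 at -0.45 ± 0.11 (adjusted p = 0.160) and Gpnmb at -0.49 ± 0.14 (adjusted p = 0.196). Of 10 measured genes of MHC class II and its costimulation, 0 passed and 6 were above 0, with a median of 0.14. The class II chains RT1-Da and RT1-Bb stood at 0.41 ± 0.12 and 0.42 ± 0.13, and the invariant chain Cd74, named after its value was seen, at 0.36 ± 0.11. The class II genes did not all go this way. RT1-DMa, RT1-DMb and RT1-Db1, also named after their values were seen, stood at -0.37 ± 0.17, -0.44 ± 0.22 and 0.01 ± 0.11. The costimulator Cd86 stood at -0.83 ± 0.14 (adjusted p = 0.0727).

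**Figure D4:**
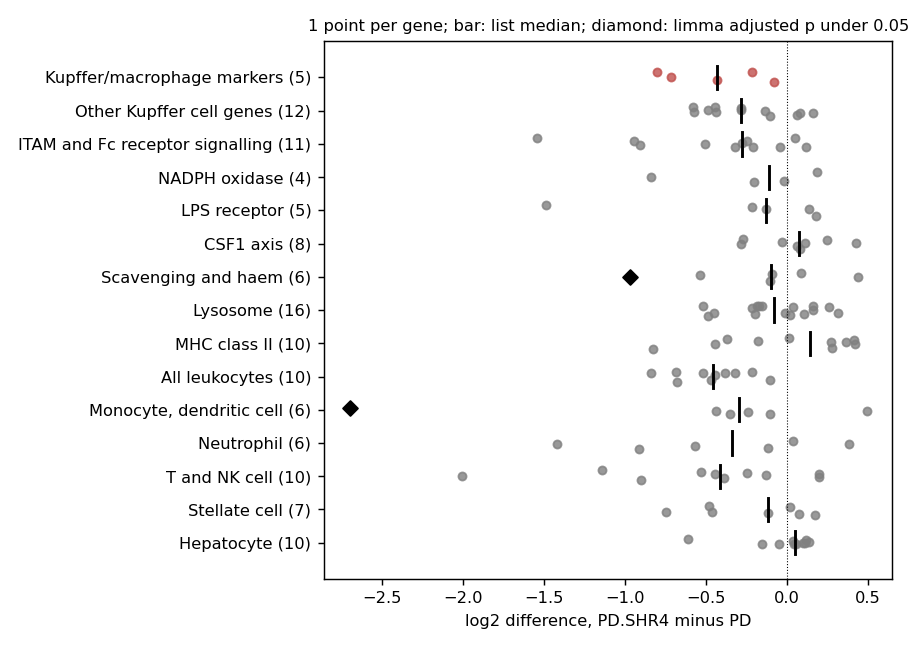
Log2 differences (PD.SHR4 minus PD) of the measured genes of each list, 1 point per gene, with the list median as a bar, diamonds for genes that passed, and the number of measured genes in brackets. Points within a row are spread vertically for legibility. The marker median of -0.43 lies beside -0.46 for genes of all leukocytes, -0.42 for T and NK cells and 0.05 for hepatocytes.

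Markers of other blood cells also had differences below 0, and their part in the differences of the macrophage markers was not tested. Genes common to all leukocytes were below 0 in 10 of 10 measured (of 12 listed), 0 passed, and the median was -0.46. Their mean level ran from 6.83 to 6.85 in the PD.SHR4 arrays, against 7.22 to 7.36 in the PD arrays. Ptprc, the leukocyte antigen CD45, was at -0.68 ± 0.13 (SE; limma, adjusted p = 0.0832).

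NK cells use Tyrobp as well. Among T and NK cell genes 10 of 14 were measured, 8 were below 0 and 0 passed, with a median of -0.42 and mean levels of 3.64 to 3.73 in the PD.SHR4 arrays, against 4.16 to 4.33 in the PD arrays. The activating receptor gene Klrk1 was at -1.14 ± 0.21 (SE; limma, adjusted p = 0.0811), and the cytotoxic granule genes Prf1 and Gzmb were at -0.90 ± 0.16 and -2.01 ± 0.42. The T cell genes Cd2 and Cd5, the 2 above 0 and named after their values were seen, were at 0.20 ± 0.15 and 0.20 ± 0.15. In 2 of the 10, Cd2 and Cd8b, every array lay in its dimmest 25% of probe sets.

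Among neutrophil genes 6 of 12 were measured, 4 were below 0 and 0 passed, with a median of -0.34 and mean levels of 4.07 to 4.15 in the PD.SHR4 arrays, against 4.42 to 4.69 in the PD arrays. S100a8, a calcium-binding protein of neutrophils and monocytes, was at -0.91 ± 0.17 (SE; limma, adjusted p = 0.0855). Cxcr2, named after its value was seen, was at 0.38 ± 0.19, with the PD.SHR4 arrays above all PD arrays. Of 6 measured monocyte and dendritic cell genes (of 12 listed), 5 were below 0 and the median was -0.29. The gene above 0 was Cx3cr1, named after its value was seen, at 0.49 ± 0.26. Only Ly6c passed, where 0.659% of all probe sets passed as lower. Ly6c, named for a monocyte antigen in mice, measured 4.86 and 5.24 in the PD.SHR4 arrays, against 7.40, 7.43 and 8.40 in the PD arrays, and was 6.48-fold lower (log2 difference -2.70 ± 0.34, SE; limma, adjusted p = 0.0392). Its adjusted p was 0.265 and 0.308 without PD.SHR4 1 or 2, and 0.0730 and 0.0623 without PD 1 or 2.

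The remaining lists covered mostly cells that are not of the blood. The 7 measured of 9 stellate cell genes had a median of -0.12, with 0 that passed and 4 below 0. The growth factor receptor gene Pdgfrb was at -0.48 ± 0.17 (SE; limma, adjusted p = 0.293). Des, Dcn and Reln, named after their values were seen, were the 3 above 0, at 0.17, 0.07 and 0.02. The 10 hepatocyte genes had a median of 0.05, with 0 that passed and 7 above 0. Among those below 0 was Tat, named after its value was seen, at -0.61 ± 0.21 (SE; limma, adjusted p = 0.270). Its PD.SHR4 arrays lay below all PD arrays. Endothelial and B cell markers were each measured by 1 gene, too few to describe a cell type, and bile duct markers by 2. Over all lists together, 120 genes other than the 5 markers were measured, of which 0 rose, 2 fell and 118 did not pass, where 0.932% of all probe sets passed, and 77 were below 0.

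The mean profile of the 5 markers, each centred on its own mean over the 5 arrays, was -0.23 and -0.31 in the PD.SHR4 arrays, against 0.22, 0.07 and 0.25 in the PD arrays. Cybb lay closest to it, at a root mean square distance of 0.060, and Clec4f farthest, at 0.206. Of 7584 other genes, those nearest to the profile over the 5 arrays were the interferon-induced Ifi27 at a distance of 0.030, Prr13 at 0.032, the lysosomal lipid-binding protein gene Gm2a at 0.035, Fgl1, which hepatocytes secrete, at 0.042, and Coro1a, an actin-binding protein of leukocytes, at 0.044. Their log2 differences lay between -0.50 and -0.44. Of the 7584 genes, 111 lay within 0.1 of the profile, so closeness over 5 arrays is not particular to the genes named. Among the markers, Cd14 at 0.134, Adgre1 at 0.149 and Tyrobp at 0.196 lay farther off than that.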

How the data were processed

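The authors deposited a table of log2 expression levels of 8797 probe sets on 5 arrays. Per the labels these are RMA values from Affymetrix Expression Console (core genes), and the submitters' processing notes also name Partek. RMA applies a background model, makes the arrays' distributions alike and combines the probes of a gene. Software versions and the build are not given in the sources. No detection calls come with the values, and precision is limited by having 5 arrays.

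The platform annotation gave 7603 probe sets 1 symbol, 409 several and 785 none. Gene IDs of 7584 matched RefSeq (GRCr8), which supplied current symbols. The brightest probe set stood for a gene with several.

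PD.SHR4 minus PD was fitted with limma 3.58.1 in R 4.3.3 (lmFit, eBayes, two-sided, no covariate), adjusted over all probe sets by Benjamini-Hochberg, and tested on simulated data. SE and 95% intervals are those of this moderated fit. The members, lists and tests were chosen with earlier results of these data known. The genes named were all measured members, up to 3 of each list by smallest p, and the 5 nearest to the members' mean profile; others are marked. The closing section gives the alternatives, among them each array left out.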

Additional observations from a re-analysis of the deposited data

How the results depend on the processing

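The log2 differences of the 5 markers kept their sign in 13 alternatives each, but many of these could not have turned it. The arrays of 4 markers did not overlap, so leaving out 1 array could not turn the sign for those. Removing shrinkage, fitting an intensity trend, leaving out the dimmest 25% and averaging a gene's probe sets left the markers' differences unchanged by construction. Tyrobp ranged from -0.87 to -0.74, Adgre1 from -0.83 to -0.63, Cybb from -0.52 to -0.37, Cd14 from -0.34 to -0.09 and Clec4f from -0.20 to -0.002. The count of changed markers, 0, became 1 with an intensity trend and robust shrinkage, 1 without the dimmest 25% of probe sets (fewer probe sets adjusted over) and 3 with array weights (Tyrobp, Adgre1 and Cybb, at adjusted p of 0.0100, 0.0117 and 0.0288), and was 0 in the others. Their median of -0.43 ranged from -0.52 to -0.37 with 1 array left out, and was -0.52 without PD 2. The Cd14 to Clec4f ratio difference of -0.14 was -0.33 without PD.SHR4 1 and 0.053 without PD.SHR4 2.

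Of 8797 probe sets 82 passed, against 0 to 55 with 1 array left out, 2 without variance shrinkage, 151 with an intensity trend and robust shrinkage, 149 without the dimmest 25% and 819 with array weights. At an unadjusted p under 0.05 there were 737 and 710 without PD.SHR4 1 or 2, where no probe set passed and the lone PD.SHR4 array was assumed to vary like PD. The 2 changed related genes became 0 to 3 with 1 array left out, 0 without shrinkage, 5 with the trend, 7 without the dimmest 25%, 1 after a further quantile normalisation, 1 after centring arrays on their medians and 35 with array weights. The cause of these moves was not tested. Of the 82, 58 were lower and 24 higher in PD.SHR4. With centred arrays the split was 59 lower and 41 higher, and with a further quantile normalisation 65 lower and 47 higher.

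Replicate numbers are shared between the strains, and deviations of same-numbered arrays correlated at 0.050 and 0.082 over probe sets. With the numbers crossed the correlations were -0.082 and -0.050. The 2 PD.SHR4 arrays deviate from their mean by equal and opposite amounts, so these values are not independent. They cannot show whether the arrays were paired. With the replicate number as a block, which leaves PD 3 out of the difference, 163 probe sets, 5 related genes and 0 markers passed, and the marker median was -0.40. Of 455 values of 35 of the named related genes, 0 turned sign, 42 newly passed and 13 no longer did. Signs could hardly turn, since several alternatives leave a difference unchanged and most of these genes were picked by smallest p.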
